A study of Ovis aries with 2 samples.

Results

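The collagen genes of the sheep cerebral cortex were taken as every gene symbol made of COL, a number, A and a number. Of 13765 features counted in both libraries, 30 were such genes, and each had at least 1 transcript in the pre-processed library. The annotation table from RefSeq (assembly ARS-UI_Ramb_v3.0), which may not be the annotation behind the counts, names 43 collagen genes of this form. The 13 others, among them COL1A1, COL4A1, COL4A2 and COL14A1, were not analysed here. The naming rule itself uses no measured value, although the family was picked for description with earlier results of these data known.

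Single nuclei were sequenced from the cortex of a wildtype adult Rambouillet ewe aged 18 to 36 months. One library, called pre-processed, held nuclei isolated straight from the dissected tissue. The other, called post-processed, came from tissue first cleared of debris and red blood cells. Each condition had 1 library, both from the same batch, so no difference between them has a replicate error, and all intervals below cover counting error only. In its treatment field the post-processed library is also marked as having had no removal, against its title and the series text, and the grouping here follows the titles. The labels do not describe how the material was removed.

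Collagens are secreted or membrane-bound proteins built from chains that wind into a triple helix. Fibrillar collagens form fibres, the FACIT collagens (fibril-associated collagens with interrupted triple helices) sit on the surface of such fibres, type IV builds the sheets of basement membranes, type VI forms beaded filaments, types VIII and X form short-chain networks, the multiplexins XV and XVIII lie at basement membranes, and the transmembrane collagens stay anchored in the cell that makes them. In brain, fibre-forming collagen is known mainly from the meninges and the walls of larger vessels, and neurons and glia are known to make several of the less abundant chains. Levels are given as CPM, the transcripts of a gene (unique molecular identifiers, UMIs) scaled to 1000000 UMIs of all listed genes in a group of nuclei. The genes differ in length and in how well a 3' protocol captures them, so levels are compared between groups of nuclei for 1 gene and not between genes.

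The pre-processed library held 2125 nuclei with a median of 2524 UMIs, and the post-processed library held 494 barcodes with at least 100 detected genes, used as nuclei, with a median of 668. No barcode was shared between them. Clustering, in which the collagen genes took no part, gave 15 clusters, which were grouped into classes by marker genes. In the pre-processed library 1063 nuclei were neuron-like, 357 astrocyte-like, 109 oligodendrocyte precursor-like, 178 oligodendrocyte-like, 86 microglia-like and 10 endothelial-like, and 322 (cluster 2) stayed unnamed. The post-processed library held 406 microglia-like, 57 oligodendrocyte-like, 29 endothelial-like and 2 astrocyte-like nuclei, with 0 of 494 neuron-like or oligodendrocyte precursor-like, which allows a share of up to 0.607% each. The microglial marker list summed to 11565 CPM in the microglia-like nuclei before and 11812 CPM after processing. The endothelial-like cluster also carried the pericyte and smooth muscle list, at 12097 and 10343 CPM beside 11425 and 19281 CPM of the endothelial list. A fibroblast list without collagens stood at 6410 CPM (12 of 16 markers with a UMI) before and 3615 CPM (11 of 16) after processing. It is thus a mixed vascular cluster with fibroblast markers. Collagen transcripts made up 1941 CPM (1914 to 1969, 18599 UMIs) of the pre-processed and 1721 CPM (1629 to 1817, 1317 UMIs) of the post-processed library.

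Which class carries each collagen was asked first in the pre-processed library, the only one with all classes. Each of 5 classes led for at least 1 collagen: astrocytes for COL5A1, COL5A2 and COL22A1, oligodendrocyte precursors for COL9A1 and COL11A1, oligodendrocytes for COL5A3, microglia for COL1A2, and neurons for COL19A1 and COL25A1. A class was said to lead when its CPM was the highest and its exact Poisson 95% interval lay above those of every other class of at least 20 nuclei, which leaves out the 10 endothelial-like nuclei, and genes with at least 20 UMIs over these classes were examined. Of the 27 collagen genes that reached this, 9 had a leading class. The neuron-like class led for 2 of the 27, beside 6.32% of all genes examined, the astrocyte-like class for 3, beside 4.64%, the precursor-like class for 2, beside 2.12%, the oligodendrocyte-like class for 1, beside 2.93%, and the microglia-like class for 1, beside 5.3%. All 9 kept their class when the nucleus with the most UMIs of the gene was left out of it. The neuron-like class pools 8 clusters, and some of these lay above the glial class that led. COL5A1, COL5A2 and COL9A1 were highest in single neuronal clusters, at 497, 286 and 316 CPM, against 440, 238 and 202 CPM in their leading glial class. For COL5A1 and COL5A2 these intervals overlapped. None of the 3 had a leader when all clusters were compared one by one. The unnamed cluster 2, which held neuronal transcripts, is not a class here. Counted as one, it stood at 194 CPM (95% interval 159 to 236, 103 UMIs) for COL19A1, close enough to the neuron-like level that this gene had no leader, and the other 8 kept theirs. When each nucleus was classed by its own marker UMIs instead, 6 of the 9 kept their class, COL19A1 had no leader, and COL9A1 and COL25A1 were led by the nuclei then called endothelial-like.

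Among the fibrillar collagens, the 3 chains of type V, which set the width of fibres, were led by astrocytes or oligodendrocytes when compared by class. COL5A1 stood at 440.4 CPM (95% interval 401 to 482, 465 UMIs) in astrocyte-like nuclei, 287 in neuron-like nuclei and 22.6 to 62.6 CPM in the other glia. COL5A2 stood at 238 CPM (95% interval 209 to 269, 251 UMIs) in astrocyte-like nuclei and at 63.4 CPM in neuron-like nuclei. COL5A3 was highest in oligodendrocyte-like nuclei, at 421 CPM (95% interval 350.0 to 501, 125 UMIs), with 172 CPM in astrocyte-like, 156 in precursor-like, 151 in microglia-like and 13.8 in neuron-like nuclei. The type V chains thus did not share 1 leading class. COL11A1, a chain that starts fibres in cartilage, was at 692 CPM (95% interval 599 to 795, 199 UMIs) in precursor-like nuclei against 80.3 CPM in neuron-like and 16.8 to 30.2 CPM in the other glial nuclei. COL2A1, the main cartilage collagen, had only 99 UMIs and no leading class, with 38.8 CPM in astrocyte-like and 7.03 in neuron-like nuclei. COL24A1 and COL27A1, minor fibrillar chains, had none either. COL24A1 was at 65.7 CPM in neuron-like and 38.2 in precursor-like nuclei, with 0 UMIs in oligodendrocyte-like and microglia-like nuclei. COL27A1 was at 393 CPM in astrocyte-like and 369 in neuron-like nuclei, levels whose intervals overlap, and at 37.01 to 149 CPM in the other glia.

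The FACIT collagens divided between neurons, astrocytes and the oligodendrocyte lineage. COL19A1, known in mouse from subsets of interneurons, reached 217 CPM (95% interval 206 to 228, 1574 UMIs) in neuron-like nuclei and 13.9 to 30.2 CPM in the 4 glial classes. COL22A1, a collagen of tissue junctions, was at 89.02 CPM (95% interval 71.9 to 109, 94 UMIs) in astrocyte-like nuclei and no more than 5.24 CPM in the other 4 classes. COL9A1, a chain of the collagen that coats cartilage fibres, was at 202 CPM (95% interval 153 to 261, 58 UMIs) in precursor-like nuclei. This was ahead of 74.96 CPM in all neuron-like nuclei together, but not of single neuronal clusters. Its partner chain COL9A2 was highest in the same class, at 143 CPM, but oligodendrocyte-like nuclei followed at 97.6 CPM and the intervals overlapped. COL16A1 was likewise highest in precursors without leading, with 275 CPM in precursor-like, 232 in oligodendrocyte-like, 181 in astrocyte-like, 90.5 in microglia-like and 43.1 in neuron-like nuclei. COL12A1 was low in every class, at 0 to 20.1 CPM.

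COL25A1, a transmembrane collagen known from neurons and from amyloid plaques, was at 467 CPM (95% interval 451 to 483, 3388 UMIs) in neuron-like nuclei and at 111 CPM in the next class, the precursors. Neuronal transcripts outside neurons bear on such low glial values. In the 4 glial classes COL25A1 stood at 6.69 to 23.8% of its neuron-like CPM and COL19A1 at 6.41 to 13.9%. The 5 genes taken for comparison, known for neuronal expression, spanned a wide range on the same measure: KCNIP4 at 4.60 to 9.49%, SYT1 at 6.56 to 13.6%, GRIN2B at 6.74 to 25.4%, GRIN1 at 11.6 to 27.8% and CAMK2A at 33.5 to 74.9%. Both collagens thus lay within the range of these genes over the 4 classes together. In precursor-like nuclei alone COL25A1, at 23.8%, was above KCNIP4 (9.49%), SYT1 (12.8%), GRIN2B (8.80%) and GRIN1 (20.5%) and below CAMK2A (33.5%), and COL19A1, at 6.41%, was below all 5. The part of free neuronal RNA in the glial values of these collagens was not tested.

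The remaining families had no class that led. Of the type VI genes, COL6A2 was at 62.6 CPM in precursor-like and 51.9 in neuron-like nuclei, COL6A3 at 70.6 in oligodendrocyte-like and 37.7 in microglia-like nuclei, and COL6A6 at 7.54 to 34.8 CPM. COL6A5 had 62 UMIs and was at 0 to 6.89 CPM over the classes. The type IV chains COL4A3 and COL4A4, known from the kidney filter, were at 10.9 and 27.97 CPM in neuron-like nuclei, and COL4A4 also at 52.8 CPM in microglia-like nuclei, from 7 UMIs. COL8A1 (15.1 to 48.8 CPM) and COL10A1 (0 to 17.99 CPM) of the short-chain group varied little between neuron-like and astrocyte-like nuclei, and COL15A1 was at 73.99 CPM in neuron-like and 60.3 in microglia-like nuclei. In RefSeq, COL8A1 overlaps FILIP1L, COL10A1 overlaps NT5DC1, and COL11A1, COL15A1, COL18A1, COL22A1 and COL27A1 each overlap a gene without a name. No source used here says whether the counting used strand, so the values of these 7 collagens may hold reads of their partners.

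**Figure D1:**
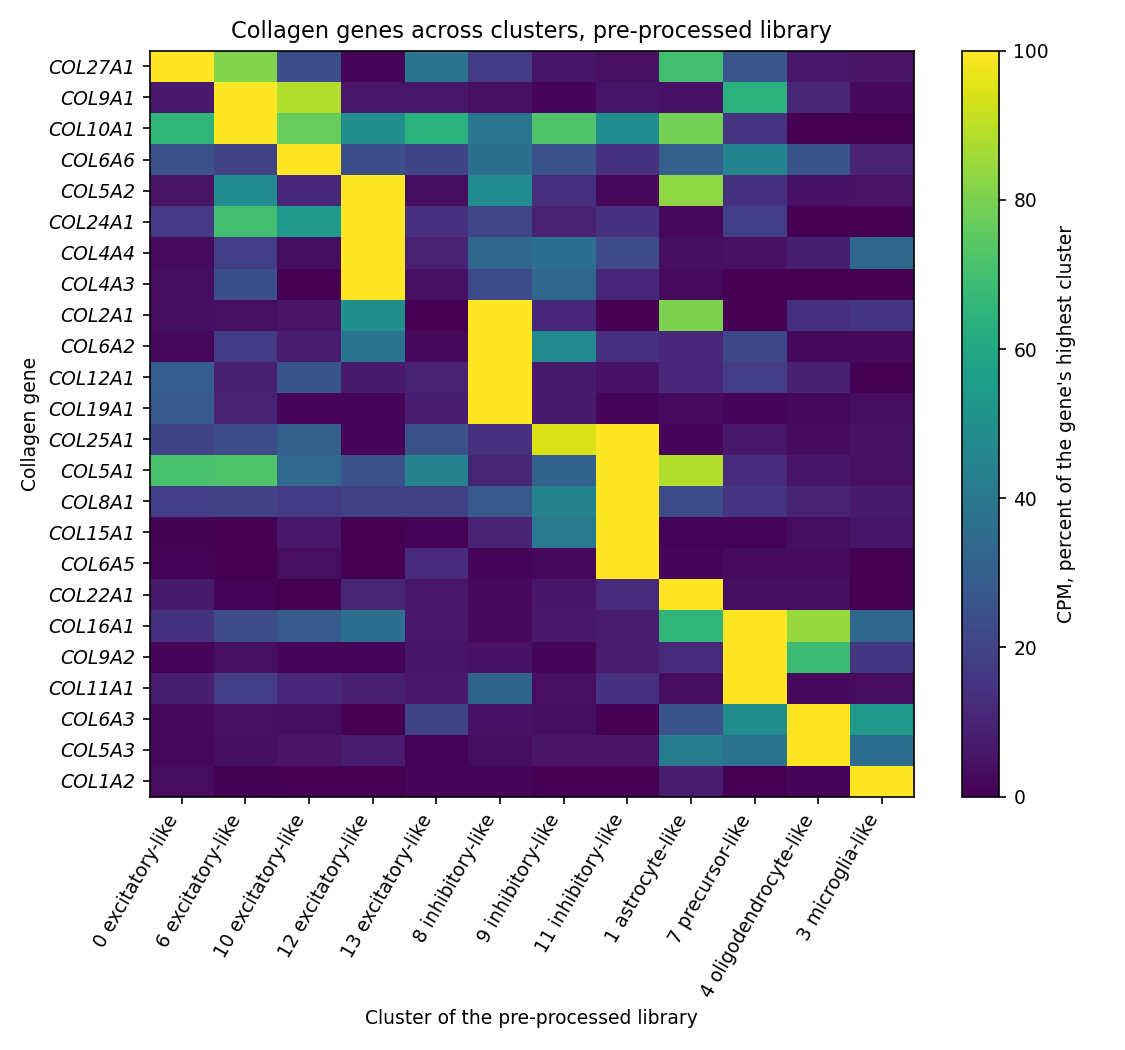
Level of the 24 collagen genes with at least 50 UMIs in the pre-processed library (rows) in 12 of its clusters (columns, with the cluster number and class). Colour gives CPM as a percent of the same gene's highest cluster, so rows cannot be compared in level. COL1A2 is highest in the microglia-like cluster and COL5A3 in the oligodendrocyte-like cluster. A neuronal cluster is highest for 17 of the 24 genes, but 8 of the 12 columns are neuronal, and the same share over all genes was not taken.

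Which kind of neuron carries each collagen was asked over the 8 neuronal clusters. An SST-positive interneuron cluster led for COL6A2, COL11A1, COL12A1 and COL19A1, a RELN-positive one for COL15A1 and 4 others, and excitatory-like clusters for COL27A1, COL6A6, COL4A3, COL4A4, COL5A2 and COL24A1. The excitatory-like clusters were 0 (marked by FREM1), 6 (ABI3BP and RORB), 10 (FOXP2, SEMA3E and SYT6, genes of corticothalamic neurons), 12 (NTNG1 and ESR2) and 13 (LAMB1 and LEPR). The inhibitory-like clusters were 8 (SST and LHX6), 9 (VIP and CNR1) and 11 (RELN and NDNF). A cluster was called excitatory-like where a larger share of the excitatory than of the inhibitory marker list was raised, and inhibitory-like otherwise. The shares were close for cluster 11, with 2 of 5 excitatory and 4 of 9 inhibitory markers raised. By the same rule as for the classes, 15 of the 25 collagen genes examined were led by 1 neuronal cluster, beside 9.08% of all genes. Counts of a gene were often held by few nuclei, and 9 of the 15 were still led by their cluster without the nucleus richest in that gene, an alternative chosen after seeing the data. Over all clusters, glia included, 14 of 27 collagen genes were led by 1 cluster, beside 16.5% of all genes.

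The SST and LHX6 cluster 8 led for 4 genes, and all 4 kept it without the richest nucleus. COL19A1 was at 919 CPM (95% interval 842 to 1002, 514 UMIs) there, against 256 CPM in cluster 0, and at 11.05 to 91.8 CPM in the other 6 neuronal clusters. COL6A2, a core chain of type VI, was at 293 CPM (95% interval 250.2 to 342, 164 UMIs), followed by cluster 9 at 140.2 and cluster 12 at 113 CPM. COL11A1 was at 224 CPM (95% interval 186 to 266, 125 UMIs), over cluster 6 at 125 CPM and below the oligodendrocyte precursors. COL12A1 was at 76.9 CPM (95% interval 55.7 to 104, 43 UMIs) against 3.68 to 22.5 CPM in the other neuronal clusters. COL2A1 was also highest in this cluster, at 48.3 CPM from 27 UMIs, but its interval overlapped that of cluster 12.

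The RELN and NDNF cluster 11 led for COL15A1, COL5A1, COL6A5, COL8A1 and COL23A1. COL15A1, a basement membrane collagen, was at 1012 CPM (95% interval 896 to 1139, 275 UMIs) in this cluster and was found in 46 of 52 nuclei. It was at 404 CPM in the VIP and CNR1 cluster 9, 100.2 in cluster 8, 64.8 in cluster 10 and 1.86 to 8.69 CPM in the other excitatory-like clusters. The 3 inhibitory-like clusters thus had the highest levels, although the intervals of clusters 8 and 10 overlap. COL6A5 was at 118 CPM (95% interval 80.6 to 166, 32 UMIs) against 14.5 CPM in the next cluster. These 2 genes kept cluster 11 without their richest nucleus. COL5A1 was at 497 CPM (95% interval 417 to 588, 135 UMIs) and lost its lead without the nucleus with 17 of its 135 UMIs. COL8A1 was at 206 CPM (95% interval 156 to 268, 56 UMIs) and lost it without the nucleus with 11 of its 56 UMIs, and COL23A1 without the nucleus with 3 of its 12 UMIs. COL25A1 was high in 2 clusters at once, at 1760 CPM (95% interval 1606 to 1925, 478 UMIs) in cluster 11 and 1665 CPM (95% interval 1535 to 1803, 606 UMIs) in cluster 9, with 361 to 539 CPM in 4 excitatory-like clusters, 243 in cluster 8 and 29.7 CPM in cluster 12.

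Among the excitatory-like clusters, cluster 0 led for COL27A1, at 565 CPM (95% interval 540.0 to 591, 1932 UMIs), ahead of cluster 6 at 457, cluster 13 at 219 and cluster 10 at 135 CPM, while cluster 12 held 9.29 CPM and the inhibitory-like clusters 22.1 to 100.2. COL9A1 was high in cluster 6, at 316 CPM (95% interval 282 to 352, 320 UMIs), and in cluster 10, at 279 CPM (95% interval 229.9 to 336, 112 UMIs), with no leader between them, and at 5.50 to 21.3 CPM in the other 6. COL6A6 was highest in cluster 10, at 77.3 CPM, and this lead ended without the nucleus that held 6 of its 31 UMIs. Among the remaining genes, COL5A3, COL16A1, COL9A2, COL10A1, COL22A1 and COL6A3 had no leading neuronal cluster.

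Cluster 12 led for COL4A3, COL4A4, COL5A2 and COL24A1. COL4A4 was at 158 CPM (95% interval 126 to 195, 85 UMIs) there and COL4A3 at 65.1 CPM (95% interval 45.3 to 90.5, 35 UMIs), against 57.7 and 21.99 CPM in the next cluster, 9, for both. These genes are neighbours in RefSeq and are known as a head-to-head pair whose protein chains combine. The 46 nuclei of the cluster had a median of 11305 UMIs, and COL4A4 was seen in 15 of 46 nuclei, with 26 of its 85 UMIs in 1 nucleus. The lead of COL4A4 held without that nucleus and the lead of COL4A3 did not. COL5A2 was at 286 CPM (95% interval 243 to 335, 154 UMIs), carried by 14 of 46 nuclei, and kept its lead, while COL24A1 was at 206 CPM (95% interval 169.7 to 248, 111 UMIs) and lost it without the nucleus with 14 of its 111 UMIs. COL5A2 was as unevenly spread in cluster 8, where 78 UMIs came from 7 of 90 nuclei. The other neighbouring pairs with enough UMIs did not share their clusters: COL9A1 lies beside COL19A1, and COL6A5 beside COL6A6, yet each of these 4 genes was highest in another cluster. COL3A1, beside COL5A2, and COL6A1, beside COL6A2, had only 4 and 7 UMIs in the pre-processed library and were not placed.

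**Figure D2:**
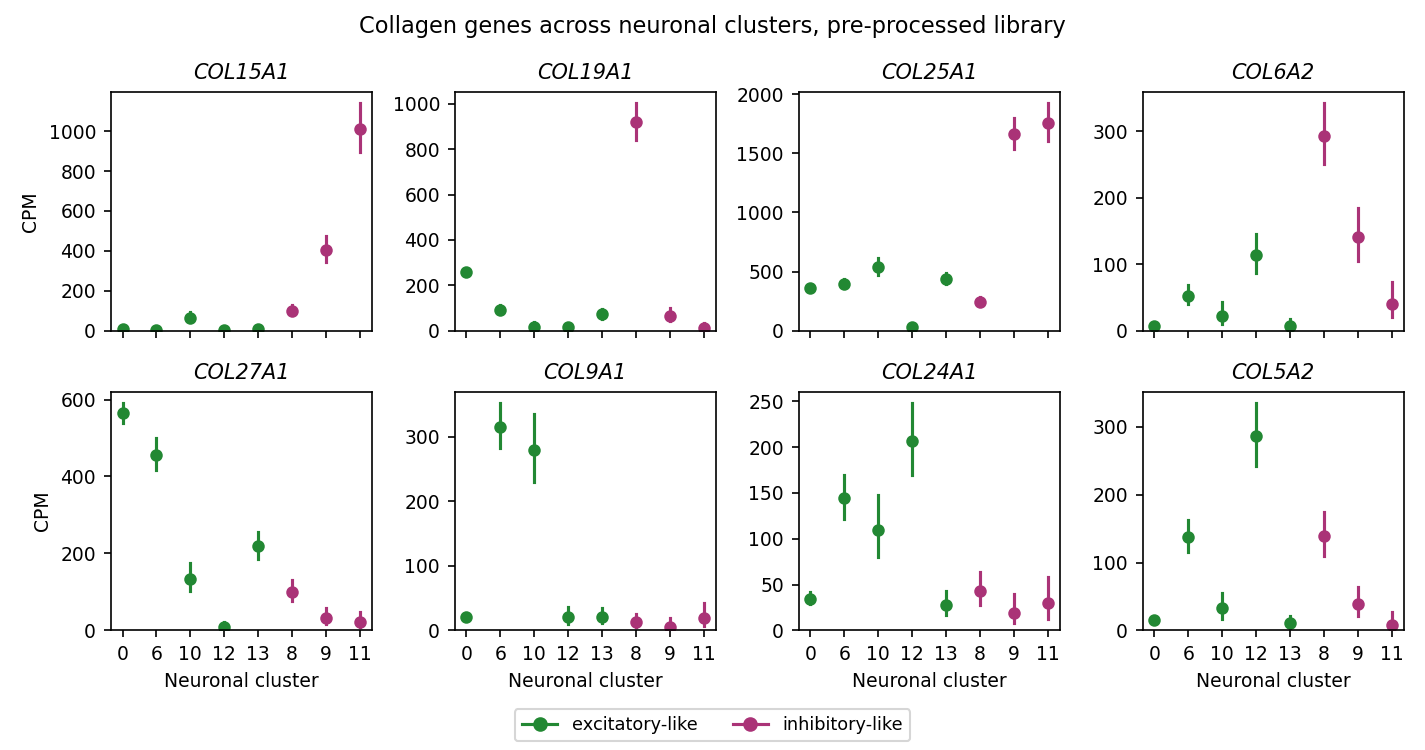
CPM of 8 collagen genes in the 8 neuronal clusters of the pre-processed library (points), with exact Poisson 95% intervals (lines). The 5 excitatory-like clusters are on the left of each panel and the 3 inhibitory-like clusters on the right. COL15A1 and COL25A1 are highest in clusters 9 and 11, COL19A1 and COL6A2 in cluster 8, COL9A1 in clusters 6 and 10, and COL24A1 and COL5A2 in cluster 12.

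Summed over clusters, 212 inhibitory-like and 851 excitatory-like nuclei were compared, and a gene was called when the ratio was at least 2-fold and its exact 95% interval left out 0 on the log2 scale. Of the 25 collagen genes examined, 10 were higher in inhibitory-like nuclei, beside 7.25% of all genes, and 4 in excitatory-like nuclei, beside 8.73%. COL15A1 stood at 400.2 CPM in the inhibitory-like and 9.73 CPM in the excitatory-like clusters, a log2 ratio of 5.35 (4.97 to 5.78). COL6A2 stood at 189 CPM in the inhibitory-like and 24.9 CPM in the excitatory-like clusters, a log2 ratio of 2.92 (2.62 to 3.23). COL25A1 stood at 1021 CPM in the inhibitory-like and 358 CPM in the excitatory-like clusters, a log2 ratio of 1.51 (1.41 to 1.62). The others higher in inhibitory-like nuclei were COL2A1, COL4A4, COL6A5, COL8A1, COL12A1, COL19A1 and COL23A1, with log2 ratios from 1.13 to 3.41, of which COL4A4 and COL12A1 fell under 2-fold without their richest nucleus. The collagens higher in excitatory-like nuclei were COL9A1 (-2.85), COL27A1 (-2.78), COL16A1 (-1.83) and COL24A1 (-1.13).

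COL1A2 encodes the second chain of type I collagen, the main collagen of fibroblasts. In both libraries it was led by microglia-like nuclei when they were clustered together. With each library clustered on its own, no post-processed cluster was named microglia-like, so the post-processed lead could not be given. The pre-processed library held 79 COL1A2 UMIs, of which 27 lay in the 86 microglia-like nuclei, at 204 CPM (95% interval 134 to 296, 27 UMIs). The next class was the astrocytes at 16.1 CPM, followed by neurons at 3.86 and oligodendrocytes at 3.36 CPM, and precursors had 0 UMIs. The 10 endothelial-like nuclei held 2 UMIs, too few to place this class above or below the microglia. The post-processed library held 311 UMIs, of which 310 lay in microglia-like nuclei, at 549.9 CPM (490.4 to 615). Oligodendrocyte-like nuclei held 1 UMI (7.18 CPM) and the 29 endothelial-like nuclei 0, where 3 UMIs would be 60.3 CPM. Within this library the microglia-like level lay far above the other classes.

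The transcripts were held unevenly. One nucleus carried 55 of the 310 post-processed microglia-like UMIs, and the 10 richest carried 152. Without the richest nucleus the level was 461 CPM. Of the 406 nuclei, 80 had a COL1A2 UMI (19.7%, exact interval 15.9 to 23.9, median depth 499.5 UMIs), against 1 of 88 other nuclei (1.14%, median depth 2086 UMIs). In the pre-processed library the shares were 15 of 86 (17.4%, 10.1 to 27.1, median depth 1294) and 31 of 2039 (1.52%, median depth 2643). Microglia-like nuclei were thus the shallower ones in both libraries and still carried the gene more often. After every nucleus was thinned to 200 UMIs, which left out 89 shallower post-processed nuclei, the microglia-like shares were 5.81% (1.91 to 13.05) before and 9.78% (6.74 to 13.6) after processing, and these intervals overlap.

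Transcripts of other cells were measured beside COL1A2. Of the fibroblast genes, the post-processed microglia-like nuclei held 4 UMIs of DCN, 2 of LUM and 0 of FBLN1, and 1 of COL3A1, the collagen that fibroblasts make together with type I. The pre-processed microglia-like nuclei had 0 UMIs of all 4. In the 10 pre-processed endothelial-like nuclei, DCN had 10, LUM 6 and COL3A1 3 UMIs. Over the whole fibroblast list, 14 of 16 markers had a UMI in the post-processed microglia-like nuclei, at 1527 CPM in sum. The list summed to 4246 CPM in oligodendrocyte-like and 3615 CPM in endothelial-like nuclei, which held 1 and 0 COL1A2 UMIs. It includes LAMA2, which was led by oligodendrocyte-like nuclei in the pre-processed library, at 2530 CPM of the 3391 CPM of the whole list there. The list is thus not limited to fibroblasts in oligodendrocyte-like nuclei. The part of other cells' RNA in the COL1A2 level was not tested. The post-processed nuclei with no UMI of an oligodendrocyte, fibroblast, mural or endothelial marker had 679.5 CPM (473 to 945, 100 nuclei), and the rest 537 CPM. Split by oligodendrocyte markers alone the order was the opposite, with 466 CPM without and 577 CPM with them. In both splits the intervals overlapped, and nuclei without markers were shallower (median 289 against 591, and 354 against 727 UMIs). In the pre-processed microglia-like nuclei COL1A2 was at 178 CPM without any oligodendrocyte, fibroblast, mural or endothelial marker, from 3 UMIs in 15 nuclei, and 207 CPM with them. Microglia-like nuclei without vascular or fibroblast markers were at 424 CPM (226 to 726) before and 739 CPM (568 to 945) after processing. P2RY12, a microglial receptor, was at 3091 and 2283 CPM in the pre- and post-processed microglia-like nuclei. The genes beside COL1A2 in RefSeq, BET1 and CASD1, stood in the post-processed microglia-like nuclei at 14.2 and 179 CPM and at 14.4 and 208 CPM in oligodendrocyte-like nuclei, so neither was higher in the microglia-like nuclei.

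The microglia-like class was made of clusters 3 and 5, and cluster 5 was almost wholly post-processed. Its 226 post-processed nuclei had a median of 230.0 UMIs and were led by GNLY and THBS1. The T lymphocyte list, to which GNLY belongs, summed to 597 CPM in them against 44.4 in post-processed cluster 3, the endothelial list to 1746 against 440.4, and the microglial list to 10682 against 11969. COL1A2 was at 558 CPM in cluster 3 and 495 CPM in cluster 5, with overlapping intervals. Cluster 3 also held oligodendrocyte transcripts, the list of 5 markers summing to 3180 CPM after processing against 9956 CPM in the oligodendrocyte-like nuclei. At a finer clustering, a group within it closest to the oligodendrocyte list was set apart, in which COL1A2 was at 187 CPM (28 nuclei), and the 2 microglial groups of the same cluster were at 760.3 (130 nuclei) and 855 CPM (18 nuclei).

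**Figure D3:**
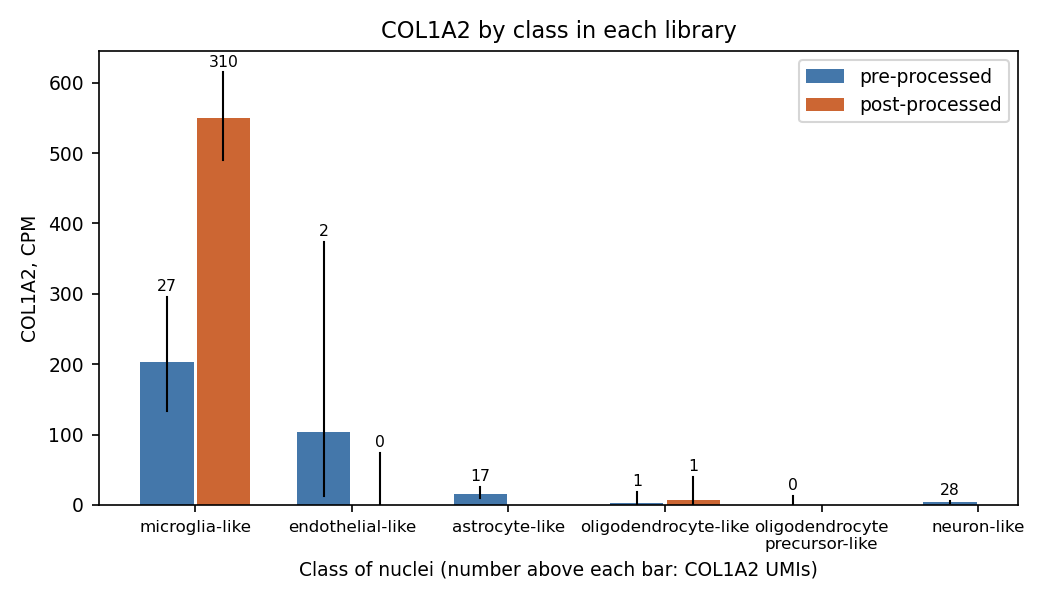
COL1A2 level (CPM, bars) by class of nuclei in the pre-processed and post-processed libraries, with exact Poisson 95% intervals (lines) and the number of COL1A2 UMIs above each bar; classes with under 10 nuclei in a library have no bar. The microglia-like bars, at 204 and 549.9 CPM, are the highest in their libraries.

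In the post-processed library, 12 collagen genes had at least 20 UMIs over the 3 classes with 20 or more nuclei, and 5 had a leading class. The oligodendrocyte-like class led for 2, beside 6.57% of all genes, the microglia-like class for 1 (COL1A2), beside 6.66%, and the endothelial-like class for 2, beside 8.35%. COL5A3 was again led by oligodendrocyte-like nuclei, at 287 CPM (95% interval 205 to 391, 40 UMIs), against 70.96 CPM in microglia-like nuclei, a lead that ended at resolution 1.0 and with classes from marker UMIs. COL6A3, a large chain of type VI, was led by the same class, at 266 CPM (95% interval 187 to 366, 37 UMIs) against 58.5 CPM. COL18A1, the basement membrane collagen from which endostatin is cut, was led by endothelial-like nuclei, at 201 CPM (95% interval 96.3 to 369, 10 UMIs), with 19.5 CPM in microglia-like nuclei. COL5A2 was led by endothelial-like nuclei too, at 502 CPM (95% interval 325 to 741, 25 UMIs), although 17 of these UMIs came from 1 nucleus, without which the class still led. The leads of COL18A1 and COL5A2 both ended at the coarser resolution of 0.2. COL23A1 had 10 UMIs in endothelial-like nuclei, all in 1 nucleus. COL12A1 had 7 UMIs there, with 5.32 and 7.18 CPM in the other classes. The vascular cluster thus carried collagen transcripts other than COL1A2.

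Between whole libraries, COL1A2 had the largest increase of the collagens and COL5A1 the largest decrease. Of 27 collagen genes with at least 20 UMIs over both libraries, 9 were higher in the post-processed library, beside 28.6% of all genes, and 10 lower, beside 20.5%. The median log2 ratio was -0.36 for the collagens and 0.33 for all 7615 genes. Measured from that median of all genes, 7 were higher and 10 lower, with COL4A4 and COL5A3 under 2-fold. A whole-library ratio cannot tell fewer nuclei of a class from less RNA per nucleus, and the libraries differed in their classes as given above.

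The 10 lower genes included the 2 led by neurons and the 2 led by precursors, the classes with 0 post-processed nuclei. COL5A1 had 2729 UMIs (285 CPM) in the pre-processed and 8 (10.5 CPM) in the post-processed library, a log2 ratio of -4.68 (-5.98 to -3.79). COL19A1 had 1720 UMIs (179.5 CPM) in the pre-processed and 10 (13.1 CPM) in the post-processed library, a log2 ratio of -3.71 (-4.84 to -2.90). COL27A1 had 3341 UMIs (349 CPM) in the pre-processed and 21 (27.4 CPM) in the post-processed library, a log2 ratio of -3.63 (-4.36 to -3.05). These 3 went from among the well-counted collagens to 21 UMIs or fewer. The log2 ratio was -3.94 (-7.31 to -2.40) for COL6A2, -2.57 (-3.02 to -2.18) for COL25A1, -2.41 (-8.30 to -0.47) for COL2A1 and -1.93 (-2.73 to -1.30) for COL11A1. It was -1.81 (-2.79 to -1.08) for COL15A1, -1.20 (-1.89 to -0.63) for COL9A1 and -1.16 (-1.96 to -0.52) for COL24A1. By family, 5 of the 8 fibrillar genes examined were lower and 2 (COL1A2 and COL5A3) higher, beside 20.5% lower and 28.6% higher over all genes. Of 6 FACIT genes 2 were lower and 0 higher, of 4 type VI genes 1 was lower and 2 higher, and of 2 type IV genes 2 were higher. The other families had 1 or 2 genes examined. These counts are too small to set a family apart from all genes.

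Of the 9 higher genes, COL1A2 had 79 UMIs (8.25 CPM) in the pre-processed and 311 (406 CPM) in the post-processed library, a log2 ratio of 5.62 (5.26 to 5.998). COL6A3 had 80 UMIs (8.35 CPM) in the pre-processed and 70 (91.5 CPM) in the post-processed library, a log2 ratio of 3.45 (2.97 to 3.93). COL8A1 had 448 UMIs (46.8 CPM) in the pre-processed and 360 (470.5 CPM) in the post-processed library, a log2 ratio of 3.33 (3.13 to 3.53). The log2 ratio was 2.55 (2.18 to 2.89) for COL6A6 and 2.66 (1.86 to 3.40) for COL18A1. The type IV pair was at 1.74 (1.02 to 2.37) for COL4A3 and 1.24 (0.72 to 1.70) for COL4A4, and COL5A3 at 1.05 (0.69 to 1.38). COL23A1 was called higher, at 2.19 (1.20 to 3.04), but the single nucleus named above decided it, and without it the ratio was 0.70 (-1.12 to 1.91). The other 8 genes examined were not called: COL5A2, COL6A5, COL9A2, COL10A1, COL12A1, COL16A1, COL22A1 and COL28A1, between -0.998 and 0.41. COL3A1, COL6A1 and COL8A2 had too few UMIs (4 and 1, 7 and 0, 11 and 0) to be examined.

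**Figure D4:**
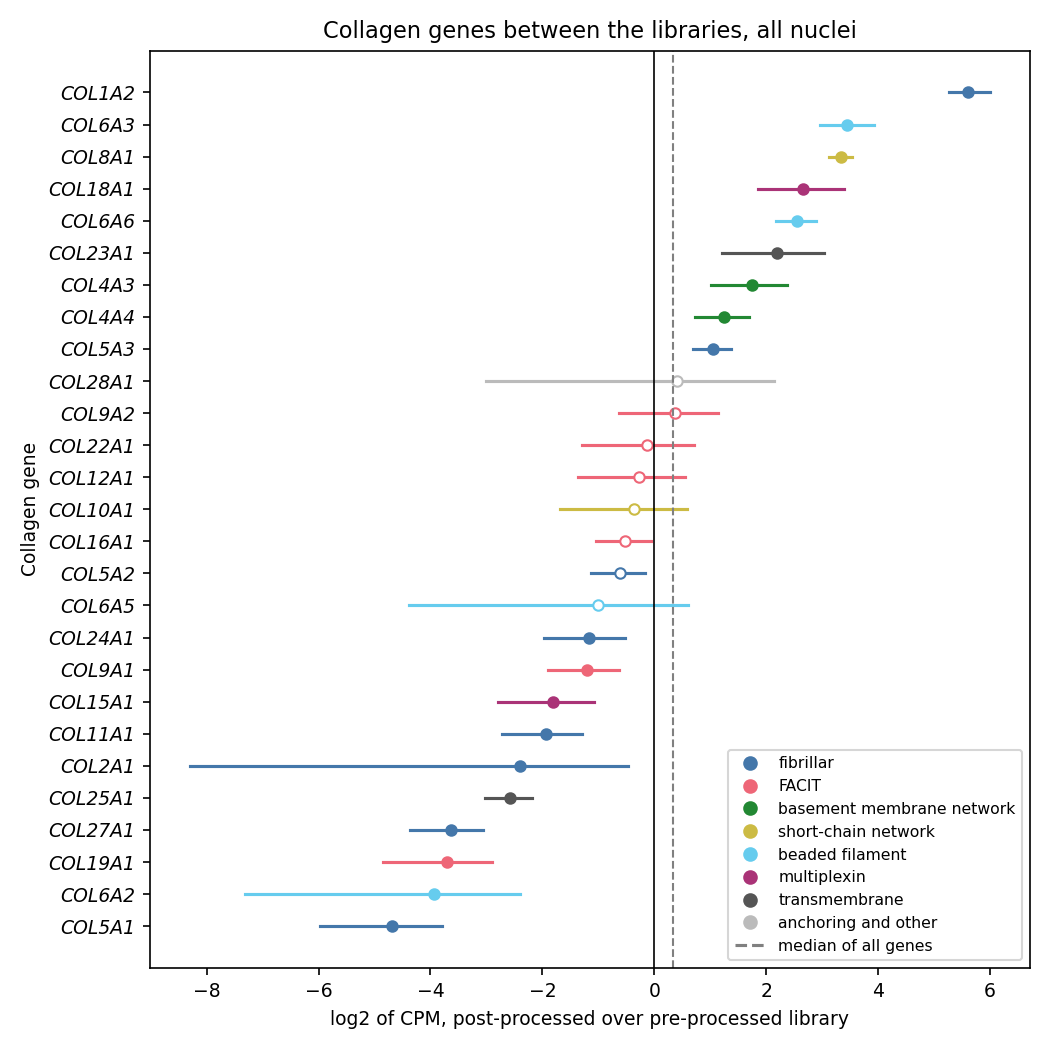
Log2 ratio of CPM, post-processed over pre-processed library, for the 27 collagen genes with at least 20 UMIs (points, coloured by family), with exact 95% intervals (lines). Filled points were called at 2-fold, and the dashed line is the median of all genes at 0.33. COL1A2 lies at 5.62 and COL5A1 at -4.68.

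The same ratio was taken within a class, which was possible for microglia-like and oligodendrocyte-like nuclei, with 8 collagen genes of at least 20 UMIs in each. In microglia-like nuclei 3 were higher after processing, beside 7.9% of all genes, and 2 lower, beside 9.66%. COL1A2 went from 204 CPM (27 UMIs) to 549.9 CPM (310 UMIs), a log2 ratio of 1.41 (0.86 to 2.06), and 1.16 without its richest nucleus. Marker lists of other cells moved both ways in these nuclei after processing. The endothelial list went from 264 CPM (9 of 11 markers with a UMI) to 599.6 (11 of 11), and the mural list from 279 (3 of 10) to 701 (9 of 10). The fibroblast list went from 1116 (6 of 16) to 1527 (14 of 16), and the T lymphocyte list from 7.54 (1 of 5) to 112 (5 of 5). The summed inhibitory neuron list rose from 1915 CPM (6 of 9) to 2760 CPM, but from fewer markers (3 of 9). After processing SST, PVALB, VIP, DLX1, DLX2 and DLX6 were at 0, so the sum does not show more interneuron RNA. The neutrophil list went from 0 (0 of 4) to 19.5 CPM (4 of 4). The pan-neuronal list fell from 6408 to 3739 CPM, the excitatory neuron list from 2774 to 83.4 and the astrocyte list from 837 to 215. The precursor list fell from 1199 to 784 CPM and the oligodendrocyte list from 3355 to 3115. Markers with a UMI were counted without matching depth. The part of other cells' RNA in the collagen changes within the class was not tested. COL8A1 went from 15.1 CPM (2 UMIs) to 459 CPM (259 UMIs), a log2 ratio of 4.61 (3.06 to 7.98). COL6A6, a type VI chain, went from 7.54 CPM (1 UMI) to 137 CPM (77 UMIs), a log2 ratio of 3.60 (1.66 to 9.501). COL5A3 was lower, from 151 CPM (20 UMIs) to 70.96 CPM (40 UMIs), a log2 ratio of -1.11 (-1.90 to -0.24), as was COL16A1, from 90.5 CPM (12 UMIs) to 33.7 CPM (19 UMIs), a log2 ratio of -1.45 (-2.54 to -0.25), but both calls were lost without the nucleus with the most UMIs. COL4A4, COL6A3 and COL25A1 were not called, at log2 ratios of 0.16, 0.52 and 0.03. Cluster 3 alone gave the same 5 calls, with COL1A2 at 1.42 (0.87 to 2.07).

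In oligodendrocyte-like nuclei 3 were higher, beside 3.3% of all genes, and 0 lower, beside 10.1%. COL8A1 went from 20.2 CPM (6 UMIs) to 539 CPM (75 UMIs), a log2 ratio of 4.63 (3.55 to 6.23). COL6A6 went from 20.2 CPM (6 UMIs) to 151 CPM (21 UMIs), a log2 ratio of 2.82 (1.54 to 4.50). COL6A3 went from 70.6 CPM (21 UMIs) to 266 CPM (37 UMIs), a log2 ratio of 1.90 (1.10 to 2.76). COL8A1 and COL6A6 were thus higher in both classes, and COL1A2 could be examined in microglia-like nuclei only. COL5A3, the collagen led by this class in both libraries, was not called, at -0.54 (-1.10 to -0.03).

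COL8A1 was high in every post-processed group: 341 CPM in endothelial-like, 459 in microglia-like and 539 in oligodendrocyte-like nuclei, and 966 CPM in the 411 post-processed barcodes under 100 genes. Its overlapping partner FILIP1L was at 34 UMIs (60.3 CPM) in microglia-like and 8 UMIs (57.5 CPM) in oligodendrocyte-like nuclei, against 7 UMIs (52.8 CPM) and 15 UMIs (50.5 CPM) in the pre-processed library, so FILIP1L did not show a change of the size of COL8A1 in these classes. Over whole libraries FILIP1L was at 25.1 and 73.2 CPM. A transcript read from the partner gene or shared by all barcodes was not tested.

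**Figure D5:**
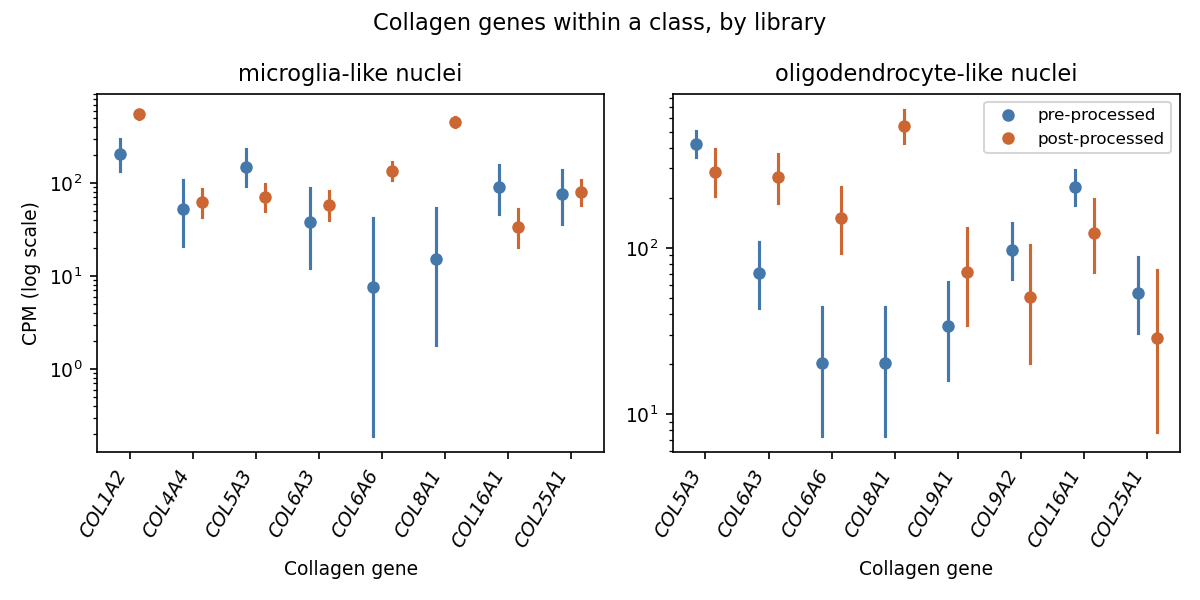
CPM (log axis) of the 8 collagen genes examined in microglia-like (left) and oligodendrocyte-like nuclei (right), pre-processed and post-processed, with exact Poisson 95% intervals. COL8A1 and COL6A6 are higher after processing in both panels, COL1A2 in the left and COL6A3 in the right.

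The genes that fold, trim, bind and break down collagen were taken from 5 lists. Of 21 genes for folding and modification, 9 were listed and examined, with 3 higher and 3 lower in the post-processed library, beside 28.6% and 20.5% of all genes, shares that stand beside the other 4 lists too. P3H2, a prolyl hydroxylase, was higher (210.1 to 789 CPM, log2 1.91), as was the glycosyltransferase COLGALT1 (46.03 to 125 CPM, log2 1.45). Both were led by microglia-like nuclei in both libraries. Within that class neither was higher after processing: P3H2 was at 1289 CPM before and 1043 CPM after, and COLGALT1 at 234 and 158 CPM. PPIB, a folding isomerase, was also higher (35.4 to 95.4 CPM, log2 1.44), and P3H3 (89.3 to 2.61 CPM, log2 -4.77), PLOD2 (103 to 41.8 CPM, log2 -1.28) and P4HA2 (40.6 to 16.99 CPM, log2 -1.20) were lower. The median log2 ratio of the 9 was -0.42, beside 0.33 over all genes. Of the processing and crosslinking genes 5 were examined, with the lysyl oxidase LOXL3 higher (39.7 to 125 CPM, log2 1.67) and the procollagen proteases BMP1 (150.3 to 26.1 CPM, log2 -2.49) and ADAMTS2 (37.5 to 9.15 CPM, log2 -1.94) lower, at a median of -0.49.

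Of 6 collagen receptors examined, 1 was higher and 4 lower, beside 28.6% and 20.5% of all genes, at a median log2 ratio of -1.80. The receptor kinase DDR2 rose (108 to 412 CPM, log2 1.93) and was led by oligodendrocyte-like nuclei, at 996 and 1063 CPM, in both libraries. The phosphatase PTPRF (94.2 to 16.99 CPM, log2 -2.42), the proteoglycan SDC3 (69.7 to 13.1 CPM, log2 -2.35) and the integrin chain ITGA11 (14.1 to 2.61 CPM, log2 -2.11) were lower. Of 5 genes of collagen breakdown examined, 3 were higher and 1 lower, beside the same shares, at a median of 2.51: the metalloprotease inhibitor TIMP3 (46.2 to 519 CPM, log2 3.49) and the lysosomal proteases CTSK (18.9 to 125 CPM, log2 2.73) and CTSB (39.98 to 227 CPM, log2 2.51) were higher, and the surface protease FAP (33.4 to 1.31 CPM, log2 -4.09) was lower. Of 7 basement membrane partners, 3 were higher and 1 lower, beside the same shares, at a median of 0.18. The laminin chain LAMA2 (165 to 1313 CPM, log2 2.997) and the proteoglycan HSPG2 (11.1 to 28.8 CPM, log2 1.40) were higher and the laminin chain LAMB1 (42.8 to 7.84 CPM, log2 -2.33) lower. TIMP3 was led by endothelial-like nuclei in the post-processed library, at 6045 CPM. Each of the 5 lists held genes that were higher and genes that were lower.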

How the data were processed

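Unique transcript counts per gene and barcode, deposited by the authors, were made with DRAGEN per the submitters' processing notes; no source used here gives its version, the genome build or the use of strand. The series text names a droplet 3' platform and about 5000 nuclei per condition, beside 2125 and 905 barcodes in the files, and depth was 9580441 and 794203 counts. Barcodes with at least 100 genes were kept as nuclei. Seurat 5.3.0 in R 4.3.3 clustered both libraries together without collagen genes (2000 variable genes, 30 components, resolution 0.5). Scrublet called 4 and 0 doublets and so made practically no calls, and none were removed. A cluster took the class whose markers had the highest mean fold over the 25th percentile of the other clusters, with at least 3 markers raised 1.5-fold, and stayed unnamed where another class had more markers among its 10 leading genes or where its median depth, times 3, was under that of its library with no own marker there. This naming rule was written after the clusters were seen. Counts were summed per library and class. CPM carry exact Poisson intervals; ratios carry 0.5 added counts and exact conditional binomial intervals, tested on simulated data. No p-value can be given with 1 library per condition. Genes with at least 50 UMIs in either library are described by class; pathway genes are named from 100 UMIs, at most 3 per list and direction. Members and lists were chosen with earlier results of these data known. Gene positions were used only as neighbours in RefSeq.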

Additional observations from a re-analysis of the deposited data

Results flagged for a closer look

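Post-processed barcodes under 100 detected genes entered the library comparisons only in the setting without a minimum of detected genes, and 3 collagens had more than 3 UMIs in them. COL8A1 was at 966 CPM (642 to 1396, 28 UMIs), COL1A2 at 379 CPM (189 to 679, 11 UMIs) and COL6A6 at 138 CPM (37.6 to 353, 4 UMIs), out of 28995 UMIs in 411 barcodes. No control barcodes exist beside them, and what these barcodes are was not tested.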

How the results depend on the processing

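No paired analysis was possible because each condition has 1 library. Over the other settings tried (detected genes, scale, added count, minimum UMIs), the counts of collagens higher (7 to 9) and lower (10) in the post-processed library stayed within 1.5 times the reported ones, and 2 single genes lost their call, COL4A4 (0.91) and COL5A3 (0.72), on the median ratio scale. Of the collagens with a leading class in the pre-processed library, neurons led for 0 in place of 2 when each nucleus was classed by its marker UMIs, and for 1 when cluster 2 was added as a class, an alternative chosen after seeing the data. With at least 50 UMIs, 3 in place of 5 post-processed collagens had a leading class. COL5A2 and COL18A1 lost theirs at resolution 0.2, and COL5A3 lost its class at resolution 1.0 and with classes from marker UMIs. The count led by 1 neuronal cluster went from 15 to between 10 and 14 at other resolutions, gene sets and minimum counts and to 9 without the nucleus with the most UMIs. The same omission took the count lower in post-processed microglia-like nuclei from 2 to 0. COL1A2 in post-processed microglia-like nuclei was 714 CPM at resolution 1.0, 679.5 CPM without nuclei with other markers and 461 CPM without its richest nucleus, and when the libraries were clustered apart no post-processed cluster was named microglia-like, so no value could be given. Its share of nuclei was 9.78% (31 of 317) when thinned to 200 UMIs, 15.3% (31 of 203) when thinned to 500 UMIs and 19.7% (80 of 406) without thinning. Thinning leaves out shallower nuclei, so these settings rest on different nuclei as well as different depths, and the 2 were not told apart. Post-processed depth leaves most collagens under 20 UMIs per class.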

Other observations

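The unnamed cluster 2 of the pre-processed library, whose leading genes were S100B, NEFL and MLC1 (median 1228.5 UMIs), also carried COL25A1, COL19A1 and COL27A1. COL25A1 was at 383 CPM in it and 467 CPM in neuron-like nuclei, COL19A1 at 194 and 217 CPM, and COL27A1 at 339 and 369 CPM. COL11A1 was at 117 CPM in it.

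The 10 endothelial-like nuclei of the pre-processed library, too few for the comparison of classes, held 6 of the 46 COL18A1 UMIs (310.2 CPM, interval 114 to 675), 5 COL4A3 UMIs (258 CPM, 83.9 to 603) and 3 of the 4 COL3A1 UMIs.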
